A study of Mus musculus with 5 samples.

Results

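The genes described here are 10 genes of MHC class II antigen presentation, which were taken by name from the 37074 gene names on the array. They are H2-Aa, H2-Ab1, H2-Eb1, H2-DMa, H2-DMb1, Cd74, Ciita, Cd80, Cd86 and Ctss, and together they had 23 probes. Class II molecules are pairs of an alpha and a beta chain that carry peptides from endocytosed proteins to the cell surface, where CD4-positive T cells read them. They are best known from dendritic cells, B cells and macrophages. Liver sinusoidal endothelial cells (LSECs), the fenestrated scavenger endothelium of the liver, are also known to take up antigen and to carry class II molecules.

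Each of the 5 Agilent mouse arrays held 1 condition, namely LSECs from mouse liver, tumor endothelial cells (TECs) from a HAK-1B, a Hepa1-6 and a KYN-2 hepatoma grown in the liver, and cultured Hepa1-6 cells. Per the labels, LSECs and all TECs came from C57BL/6 mice and the Hepa1-6 line from C57L. The methods give female 6-week-old C57BL/6 or BALB/c nu/nu nude mice, without saying which mice gave the RNA of each array. HAK-1B and KYN-2 are human lines and Hepa1-6 is a mouse line, and each TEC preparation was the cells of a tumor that anti-mouse CD31 beads retained. Nude mice lack a thymus and most T cells but keep B cells, macrophages and dendritic cells. Human or mouse origin of the tumor, a nude or immunocompetent host and the strain's class II alleles cannot be told apart with 1 array a condition.

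Between 44.6% and 78.1% of the 56605 probes were well above background on an array, the highest share being that of Hepa1-6 TEC. The 3 TEC arrays shared a slide and the LSEC and cultured cell arrays had a slide each, so that slide and group cannot be told apart. Values are log2 signals after quantile normalization over the 5 arrays, which gives every array the same distribution. A single array stood for each condition, so no value has a replicate behind it, and the small number of arrays sets its precision. Differences in these sorted cell mixtures cannot tell fewer cells of a type from less RNA per cell.

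The class II genes share a promoter module, in which an X box is read by the RFX complex and a Y box by NF-Y, and on which the coactivator CIITA assembles. The part of this module in the differences between arrays was not tested. The stretch from 120 to 31 bases before the RefSeq start (GRCm38.p6) is shown for 4 class II genes, of which H2-Oa is not a member. Matches to the Y box core (ATTGG) and the X box core (AGNNACNGA) on either strand are in capitals.
H2-Aa, chr17:34287854-34287943, minus strand: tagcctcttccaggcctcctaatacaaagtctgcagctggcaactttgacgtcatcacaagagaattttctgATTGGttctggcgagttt
H2-Eb1, chr17:34305747-34305836, plus strand: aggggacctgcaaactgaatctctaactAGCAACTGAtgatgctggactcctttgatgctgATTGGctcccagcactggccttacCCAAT
H2-DMb1, chr17:34153071-34153160, plus strand: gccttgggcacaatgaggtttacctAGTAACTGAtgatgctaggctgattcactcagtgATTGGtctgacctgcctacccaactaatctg
H2-Oa, chr17:34092259-34092348, plus strand: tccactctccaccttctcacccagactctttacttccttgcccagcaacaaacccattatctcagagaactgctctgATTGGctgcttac

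The forward Y box core began 48 bases before the start in H2-Aa, 59 in H2-Eb1, 61 in H2-DMb1 and 43 in H2-Oa. The X box core lay 24 bases upstream of the Y box core in H2-Eb1 and 25 bases upstream in H2-DMb1. In H2-Oa the forward match to the X box letters lay 89 bases upstream of the Y box core, before the stretch shown. That spacing differs from those of H2-Eb1 and H2-DMb1, so this match may not be the X box of the module. On the reverse strand H2-Oa and H2-DMb1 each held a further match, 187 and 163 bases before the start. No exact match to the X box letters was found in H2-Aa. Inexact matches were not searched, so the gene may still hold an X box. Promoters were given for 6 members and for 10 of the 16 class II chains and members searched, and the Y box core was in 8 of these 10 genes and the X box core in 4. Over all 32851 promoters, the 250 bases before the start held the Y box core in 33.8% and the X box core in 14.7%, and both in 4.72%. In Cd80 and Ctss neither was found, and H2-DMa held a Y box core 198 bases before the second of its 2 starts. A match is a description of letters and not a bound site.

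All 10 members were well above background on the LSEC array and on each TEC array by their brightest probe. On the HAK-1B TEC array every member was higher than in LSECs, by 0.30 to 2.02 on the log2 scale with a median of 1.17, and all 10 were also higher under the other 4 scalings tried. On the Hepa1-6 TEC and KYN-2 TEC arrays the members lay on both sides of LSECs, with medians of -0.33 and -0.11, and the KYN-2 median turned to 0.05 after scaling to the 75th percentile. Over all genes measured the medians were -0.0019, 0.09 and -0.05. In cultured Hepa1-6 cells only 4 of the 10 were well above background, and all 10 were lower than in LSECs.

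**Figure D1:**
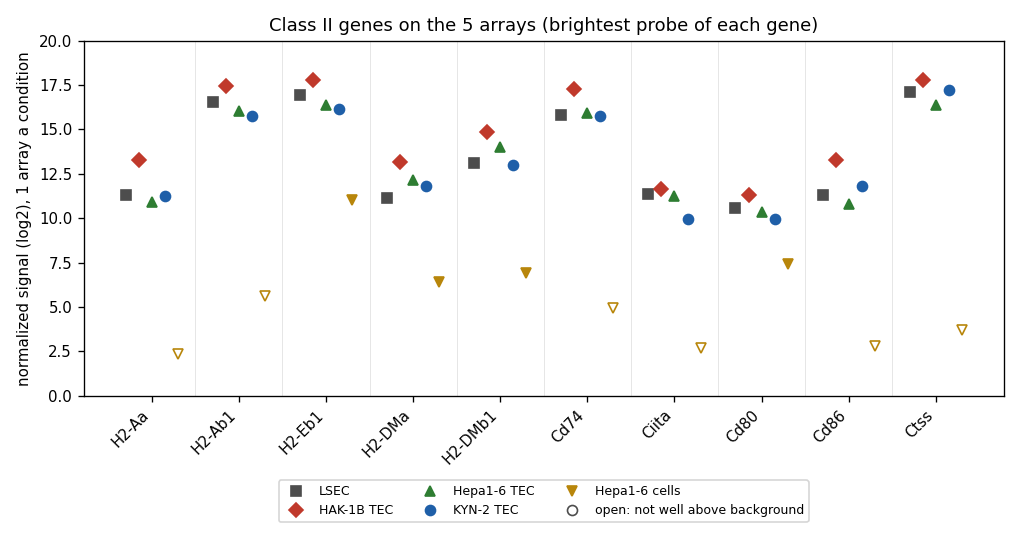
Normalized log2 signal (vertical axis) of the brightest probe of each of the 10 class II genes (horizontal axis) on the 5 arrays, 1 point per array, with open symbols where a probe was not well above background. The HAK-1B TEC point is the highest for every gene, and the cultured Hepa1-6 cells are the lowest.

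H2-Aa, H2-Ab1 and H2-Eb1 encode the alpha and beta chains that form the surface molecules, and Cd74 encodes the invariant chain that guards their groove until they reach the endosome. H2-Aa (chr17:34421285-34421344 on mm9, minus strand, the coordinates of its probe) had 11.31 in LSECs, 13.28 in HAK-1B TEC, 10.89 in Hepa1-6 TEC, 11.25 in KYN-2 TEC and 2.33 in cultured Hepa1-6 cells. HAK-1B TEC thus had 3.92-fold the LSEC signal, and the other TEC arrays were within 1.34-fold of LSECs. The cultured cells were not well above background, which puts LSECs at least 40.8-fold higher.

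H2-Ab1 was measured by 4 probes between 34404357 and 34406363 of chromosome 17 (mm9), all well above background in LSECs and TECs. Its brightest probe had 16.52 in LSECs, 17.42 in HAK-1B TEC, 16.01 in Hepa1-6 TEC, 15.74 in KYN-2 TEC and 5.63 in cultured Hepa1-6 cells. After quantile normalization the 4 probes gave the same signs, HAK-1B TEC being higher by 0.81 to 1.92 on the log2 scale. The Hepa1-6 and KYN-2 TEC were lower by 0.19 to 0.54 and by 0.11 to 0.78. After 75th percentile scaling HAK-1B TEC stayed higher on all 4 probes, by 1.34 to 2.16. The probes then ran from -0.14 to 0.02 in Hepa1-6 TEC and from -0.09 to 0.22 in KYN-2 TEC, so the lower sign depended on the normalization. The cultured cells were dark on all 4 probes, and the brightest was at least 1513-fold higher in LSECs.

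H2-Eb1 (chr17:34453075-34453134 on mm9) had 16.36 in Hepa1-6 TEC, 16.93 in LSECs, 16.17 in KYN-2 TEC and 17.76 in HAK-1B TEC. The cultured Hepa1-6 cells had 11.02, well above background, although H2-Aa, H2-Ab1 and Cd74 were dark there. The H2-Eb1 signal of the cultured cells was 60.1-fold below that of LSECs. Before normalization the H2-Eb1 probe read an intensity of 3002 in the cultured cells, where the probes of H2-Aa, H2-Ab1 and Cd74 read 12.8 to 46.8.

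Cd74 (chromosome 18, bases 60972075 to 60972132 on mm9) had 15.83 in LSECs, 17.27 in HAK-1B TEC, 15.93 in Hepa1-6 TEC, 15.73 in KYN-2 TEC and 4.96 in cultured Hepa1-6 cells. HAK-1B TEC had 2.71-fold the LSEC signal, and Hepa1-6 TEC and KYN-2 TEC differed from LSECs by 0.10 and -0.10 on the log2 scale. Averaged over H2-Aa, H2-Ab1, H2-Eb1 and Cd74, the difference to LSECs was 1.28 for HAK-1B TEC, -0.42 for KYN-2 TEC and -0.35 for Hepa1-6 TEC. The 4 genes of the chains and the invariant chain were thus lower or close to LSECs on those 2 arrays, although under 75th percentile scaling the range in KYN-2 TEC ran from -0.24 to 0.55 and in Hepa1-6 TEC from -0.47 to 0.51.

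H2-DMa and H2-DMb1 encode the chains of DM, the editor that removes the remnant of the invariant chain and exchanges peptides in the endosome. H2-DMa (its probe between 34274300 and 34274863 of chromosome 17, mm9) had 11.16 in LSECs, 13.17 in HAK-1B TEC, 12.13 in Hepa1-6 TEC, 11.81 in KYN-2 TEC and 6.42 in cultured Hepa1-6 cells. By the brightest probes it was the one member more than 1.5-fold above LSECs on all 3 TEC arrays, with 4.05-fold, 1.96-fold and 1.57-fold the LSEC signal. H2-DMb1 (chr17:34297109-34297168 on mm9) had 13.09 in LSECs, 14.84 in HAK-1B TEC, 14.03 in Hepa1-6 TEC, 12.97 in KYN-2 TEC and 6.89 in cultured Hepa1-6 cells. Both DM genes were well above background in the cultured cells, at 26.6-fold and 73.6-fold below LSECs. A second H2-DMb1 probe was well above background only in HAK-1B TEC, at least 1.53-fold above LSECs.

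Ctss encodes cathepsin S, which cuts the invariant chain. It had 17.08 in LSECs, 17.79 in HAK-1B TEC, 16.40 in Hepa1-6 TEC, 17.23 in KYN-2 TEC and 3.73 in cultured Hepa1-6 cells (chr3:95360162-95360221 on mm9). The 3 TEC arrays were within 1.63-fold of LSECs, and the cultured cells were not well above background, at least 2229-fold below LSECs.

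Ciita encodes the coactivator on which class II transcription depends. Its brightest probe (chr16:10526458-10526517 on mm9) had 11.36 in LSECs, 11.66 in HAK-1B TEC, 11.26 in Hepa1-6 TEC, 9.96 in KYN-2 TEC and 2.72 in cultured Hepa1-6 cells. KYN-2 TEC was 2.64-fold below LSECs, which made Ciita the only member past 2-fold in that comparison by its brightest probe. In HAK-1B TEC, where H2-Aa, H2-DMa, H2-DMb1, Cd74 and Cd86 were more than 2-fold higher, Ciita differed by 0.30. Of the other Ciita probes, 1 was dark on every array, another differed from LSECs by -1.01 in KYN-2 TEC, -0.64 in Hepa1-6 TEC and 0.56 in HAK-1B TEC, and a dim one by -0.62, -2.56 and -0.39. For the dim probe the intensity before normalization was 53.2 in LSECs and 26.7 in Hepa1-6 TEC, a smaller gap than the 5.89-fold after normalization.

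Cd80 and Cd86 encode B7 molecules, the costimulatory ligands of CD28 and CTLA-4 on T cells. For Cd86 the brightest of 4 probes (chr16:36603961-36604020 on mm9, minus strand) had 11.30 in LSECs, 13.29 in HAK-1B TEC, 10.82 in Hepa1-6 TEC, 11.82 in KYN-2 TEC and 2.82 in cultured Hepa1-6 cells. All 4 Cd86 probes were higher in HAK-1B TEC, by 0.87 to 2.03, and lower in Hepa1-6 TEC, by 0.43 to 0.90. In KYN-2 TEC 3 of the 4 were higher, between -0.35 and 0.65.

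The probes of Cd80 disagreed. The brightest (chr16:38486772-38486831 on mm9) had 10.60 in LSECs, 11.28 in HAK-1B TEC, 10.35 in Hepa1-6 TEC, 9.96 in KYN-2 TEC and 7.43 in cultured Hepa1-6 cells, where it was well above background. The other 3 probes, at 38474174, 38479343 and 38495628 of chromosome 16, were dark in the cultured cells and higher in all 3 TECs, by 2.46 to 3.18 in HAK-1B TEC, 0.56 to 1.78 in Hepa1-6 TEC and 1.19 to 1.61 in KYN-2 TEC. The probe at 38474174 had 6.94 in LSECs, 8.21 in KYN-2 TEC, 8.71 in Hepa1-6 TEC and 9.5 in HAK-1B TEC, and the TEC signals were 2.42-fold, 3.43-fold and 5.92-fold that of LSECs. With the mean of the 4 probes in place of the brightest, the mean of the 3 TECs turned from -0.07 to 1.30. The annotation of the exons at these mm9 positions was not analysed here.

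**Figure D2:**
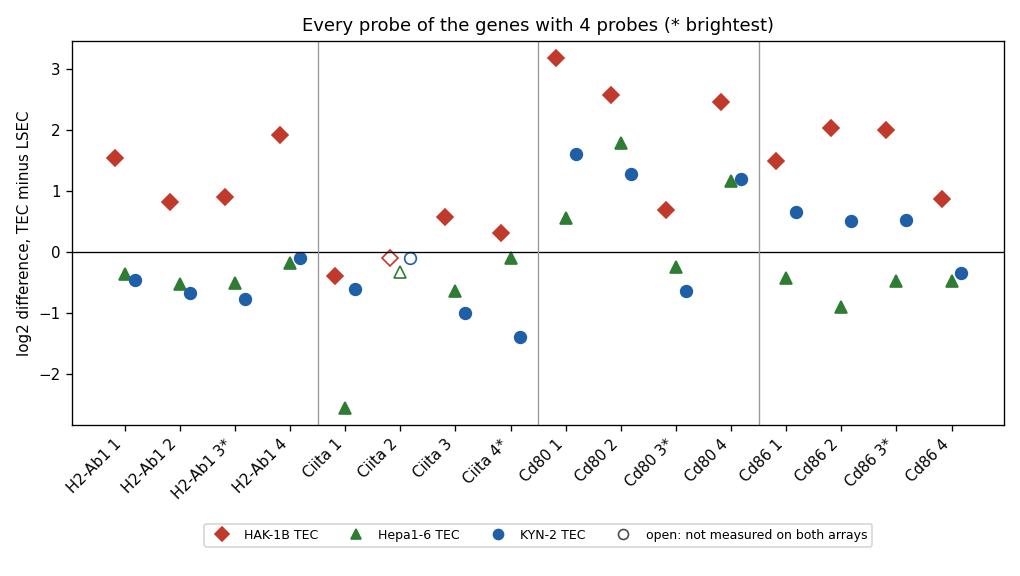
Log2 difference of each TEC array to LSECs (vertical axis) for every probe of the 4 genes with 4 probes (horizontal axis), with open symbols where the difference was not measured on both arrays. The probes of H2-Ab1 give the same signs after this quantile normalization. For Cd80 3 probes are above 0 in all 3 TECs, whereas the brightest is below 0 in Hepa1-6 TEC and KYN-2 TEC.

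The methods call a gene by size alone, when its ratio is 1.5 or more and its Z-score 2 or more, or when these are 0.66 or less and -2 or less. No member was called by its brightest probe in any TEC. This rule of size called 7.05% of all genes in HAK-1B TEC, whereas the Hepa1-6 TEC share was 6.59% and the KYN-2 TEC share 6.51%. Its Z-score demanded a signal 7.25-fold, 11.4-fold and 6.79-fold that of LSECs on these arrays, in the same order. Of the 23 member probes, 1 of Cd80, at 38495628, passed in HAK-1B TEC with 9.05-fold the LSEC signal. After normexp background correction the rule called H2-DMa and Cd86 higher in HAK-1B TEC, where 3.31% of all genes were.

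By ratio alone, without the Z-score, every member except Ciita was higher in HAK-1B TEC, 9 of 10 against 26.6% of all genes. In Hepa1-6 TEC 2 members were higher, H2-DMa and H2-DMb1, against 35.2% of all genes, and 1, Ctss, was lower, against 30.9%. In KYN-2 TEC H2-DMa was the 1 higher member, against 26% of all genes, and 4 were lower, against 28.5%, namely H2-Ab1, H2-Eb1, Ciita and Cd80.

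At a plain 2-fold, 5 of the 10 members were higher in HAK-1B TEC, where 17.4% of all genes were, and 0 were lower, where 18% were. These were H2-Aa, H2-DMa, H2-DMb1, Cd74 and Cd86, and the count was 5 to 7 over the alternatives. In Hepa1-6 TEC 0 members were 2-fold higher and 0 lower, against 25.1% and 22% of all genes. In KYN-2 TEC 0 were higher and 1, Ciita, was lower, against 16.8% and 18.3% of all genes. With 10 genes counted, 1 gene is 10% of the list.

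**Figure D3:**
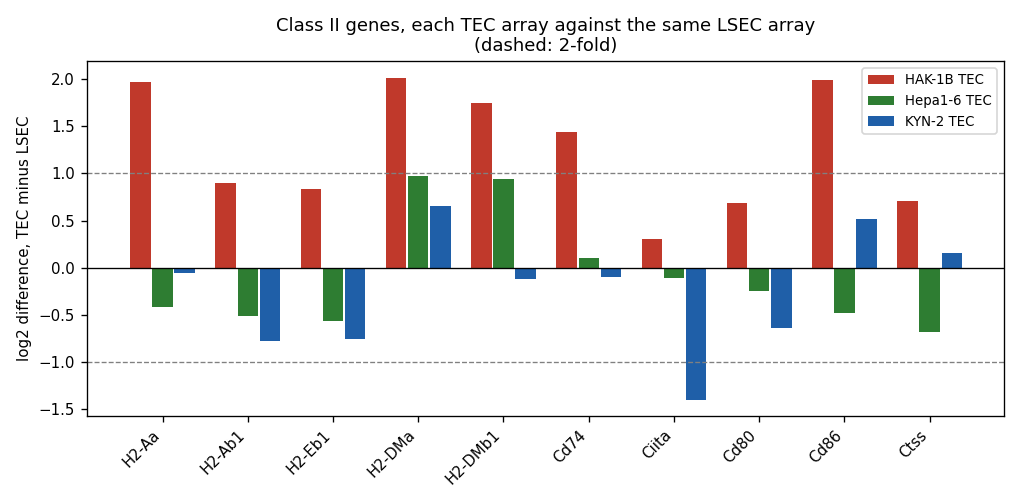
Log2 difference of each TEC array to the same LSEC array (vertical axis, bars from 0) for the 10 class II genes (horizontal axis), with dashed lines at 2-fold. All HAK-1B TEC bars are above 0 and 5 pass 2-fold, and the one bar past 2-fold downward is Ciita in KYN-2 TEC.

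The limma fit of the 3 TECs as a group against the lone LSEC array, which is assumed to vary like the TECs, called 0 of 10 members and 0% of all genes at an adjusted p of 0.05 over 42113 probes. At an unadjusted p under 0.05 limma called 3581 probes, and 0 of the members' brightest probes. By brightest probe, the member with the smallest p was H2-DMa, higher by 1.21 ± 0.73 (SE, n = 3 TECs and 1 LSEC array) in 3 of 3 TECs with an adjusted p of 0.761 in limma. Of the other probes, 2 of Cd80 had a smaller p, with adjusted p of 0.588 and 0.665 in limma. The median of the members' mean differences was 0.27, and it turned to -0.25 without HAK-1B TEC. Leaving out Hepa1-6 TEC gave 0.55, and leaving out KYN-2 TEC gave 0.49.

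Set against each other, HAK-1B TEC was above KYN-2 TEC in 10 of 10 members with a median log2 difference of 1.56, and above Hepa1-6 TEC in 10 of 10 with a median of 1.36. Between HAK-1B TEC and KYN-2 TEC, both from human lines, 9 members differed by at least 2-fold, where 10% of all genes were 2-fold higher in HAK-1B TEC. The exception was Ctss, with 0.56. Hepa1-6 TEC and KYN-2 TEC differed by a median of 0.24, with 7 members higher in Hepa1-6 TEC, and 2 of the 10, Ciita and H2-DMb1, were more than 2-fold higher there, against 20.4% of all genes.

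In the cultured Hepa1-6 cells the rule of size called 8 of the 10 members lower than LSECs, where 7.4% of all genes were called in either direction, and all 10 were 2-fold lower, where 30.9% were. The rule demanded a signal 51.2-fold below LSECs there. H2-Eb1 and H2-DMb1 were measured past that fold, and the lower limits of H2-Ab1, Cd74 (at least 934-fold) and Ctss were past it too. The lower limits of H2-Aa (40.8-fold), Ciita (42.3-fold) and Cd86 (40.4-fold) were not, so the calls of these 3 rest on signals that were not well above background. The members that could be measured on both arrays were H2-Eb1, H2-DMa, H2-DMb1 and Cd80, and Cd80 was 8.99-fold lower. Over probes present on both arrays, the rule called these 4 lower, where 3.66% of all genes were.

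Of the other class II chains and editors, 5 of 6 were on the array. In HAK-1B TEC 3 of them were 2-fold higher, as was 1 in KYN-2 TEC, against 17.4% and 16.8% of all genes. In Hepa1-6 TEC 1 was 2-fold lower, H2-Eb2, whose probe was dark in LSECs, against 22% of all genes. H2-Ea-ps, the alpha chain locus of the E molecule that is inactive in C57BL/6, differed from LSECs by 2.28, -0.28 and -0.04 in the TECs, in the order HAK-1B, Hepa1-6 and KYN-2 that is kept from here on. Its probe was nonetheless well above background on the LSEC array, with 10.69, and on each TEC array, with 12.97, 10.42 and 10.65. H2-Oa, a chain of the DO inhibitor of DM, differed by 2.08, -0.24 and 1.09. Its promoter is among those printed for the class II module.

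Among 7 transcription factors of the class II module, 0 were 2-fold higher in any TEC. In Hepa1-6 TEC 2 were 2-fold lower, against 22% of all genes. Rfx5, a subunit of the RFX complex, differed by -0.03, -3.03 and 0.66, and Nfyb, a subunit of NF-Y, by -0.45, -1.09 and -0.63. Rfx5 was a dim probe, with a signal of 6.0 in LSECs and 3.0 in Hepa1-6 TEC. Of 10 genes of the interferon gamma axis, which induces Ciita, 3, 5 and 4 were 2-fold lower in the TECs of HAK-1B, Hepa1-6 and KYN-2 tumors, where 2, 0 and 0 were 2-fold higher. On these arrays 18%, 22% and 18.3% of all genes were 2-fold lower and 17.4%, 25.1% and 16.8% higher. Jak1, a kinase of the receptor, differed by -1.76, -2.08 and -1.36, and Socs1, an inhibitor of that signal, by -1.44, -2.01 and -1.18. Ifngr2, a chain of the receptor, and Jak2, its other kinase, were the 2 higher genes in HAK-1B TEC, with 3.48-fold and 2.16-fold the LSEC signal. The list median was -0.46, -1.12 and -0.71.

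Of 12 genes of endosomal processing, 5, 2 and 3 were 2-fold higher and 1, 3 and 2 were 2-fold lower. The shares of all genes were 17.4%, 25.1% and 16.8% higher and 18%, 22% and 18.3% lower. Cd63, a tetraspanin of late endosomes, passed the rule of size in HAK-1B TEC and KYN-2 TEC and had 11.5-fold, 7.75-fold and 8.06-fold the LSEC signal, and it had 16.0-fold in the cultured Hepa1-6 cells. Marchf1, a ubiquitin ligase that takes class II molecules off the surface, was chosen after its values were seen and was 4.63-fold, 4.56-fold and 3.04-fold below LSECs. The 13 genes of class I presentation had medians of -0.43, -0.55 and -0.69. Of them 0, 4 and 3 were 2-fold lower, against the same shares of all genes. H2-K1 differed by -0.49, -2.06 and -0.99 and H2-D1 by -0.53, -1.72 and -0.93, both being class I heavy chains.

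Of 10 other costimulatory and coinhibitory genes, 8, 4 and 8 were 2-fold higher in the TECs, in the order HAK-1B, Hepa1-6 and KYN-2, and 0 were lower. Over all genes, 17.4%, 25.1% and 16.8% were 2-fold higher and 18%, 22% and 18.3% were lower. Havcr2, which encodes the receptor TIM-3, had 43.8-fold, 2.05-fold and 10.5-fold the LSEC signal. Tnfsf9, the ligand of 4-1BB, had 6.18-fold, 1.42-fold and 17.0-fold. Cd276, which encodes B7-H3, was dark in LSECs and at least 15.9-fold, 18.1-fold and 6.37-fold higher in the TECs. Pdcd1lg2, a ligand of PD-1, was also dark in LSECs and at least 5.37-fold, 4.89-fold and 2.08-fold higher. Tnfsf4, the ligand of OX40, was dark in LSECs and at least 5.94-fold higher in Hepa1-6 TEC. In HAK-1B TEC its lower limit was 1.39-fold, so its place in the 2-fold count there rests on a dark signal. In the cultured Hepa1-6 cells, which are no endothelium, Cd276, Pdcd1lg2 and Tnfsf4 were at least 42.2-fold, 94.8-fold and 22.9-fold above LSECs, whereas Havcr2 and Tnfsf9 were dark. The part of tumor cells in the TEC signal of these genes was not tested.

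Markers of the sorted cells themselves moved with the tumors. All 14 LSEC markers were well above background in LSECs and in each TEC array, and 13 of 14 were 2-fold lower in each TEC, with medians of -4.37, -3.05 and -3.05. The 2-fold lower share of all genes was 18%, 22% and 18.3%. Clec4g, Gpr182, Oit3, Wnt2, F8 and Dnase1l3 passed the rule of size downward in all 3, and Stab2 in HAK-1B and KYN-2 TEC. All 14 pan-endothelial markers were also present, and 13, 14 and 11 were 2-fold lower, with medians of -2.85, -2.58 and -1.63, among them Kdr and Tek by the rule of size in all 3 and Egfl7 and Robo4 in HAK-1B TEC. On the same arrays the medians of the class II members were 1.17, -0.33 and -0.11.

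**Figure D4:**
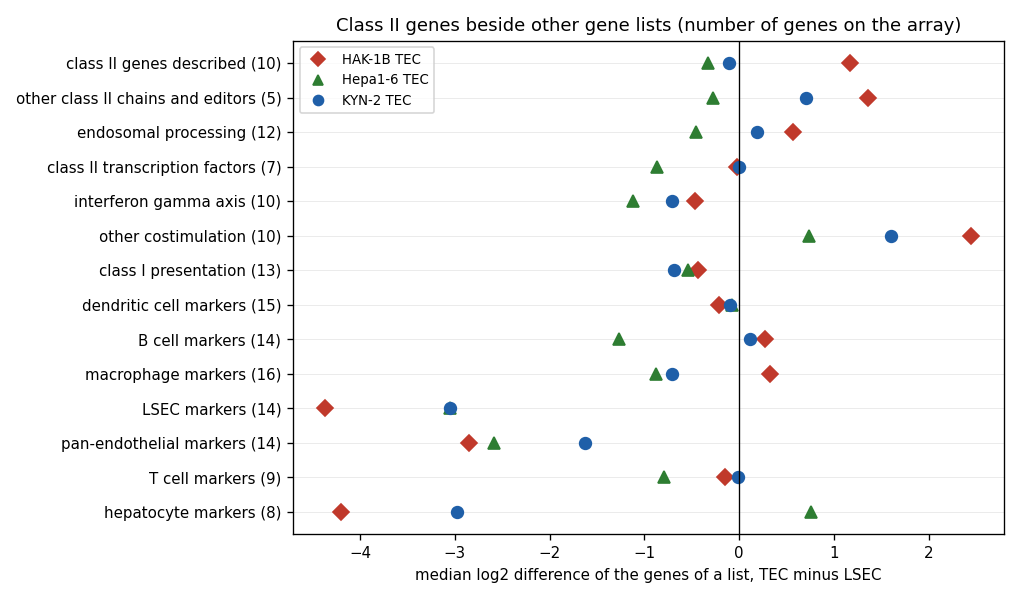
Median log2 difference to LSECs (horizontal axis) of the 10 class II genes and of 13 other gene lists (vertical axis, with the number of genes on the array), 1 symbol per TEC. The class II medians lie at -0.33, -0.11 and 1.17, the LSEC and pan-endothelial markers between -4.37 and -1.63 and the other costimulatory genes at 0.74 to 2.45.

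Markers of cells that carry class II molecules were also present on the endothelial arrays. All 16 macrophage markers were well above background in LSECs and each TEC, with a summed signal (linear scale, after normalization) of 987448 in LSECs and of 1017355, 540856 and 681577 in the TECs. Without Lyz2, the brightest, it was 808220 in LSECs and 699159, 358975 and 444499 in the TECs, so that LSECs rather than HAK-1B TEC were the highest. In the TECs 2, 0 and 2 macrophage markers were 2-fold higher and 5, 7 and 6 were 2-fold lower. Clec4f, Vsig4, Timd4, Marco and Cd5l passed the rule of size downward in HAK-1B TEC. The list medians were 0.32, -0.88 and -0.71, so the median macrophage marker was above LSECs in HAK-1B TEC and below them in the other TECs. For this list and those below, the 2-fold shares of all genes were 17.4%, 25.1% and 16.8% higher and 18%, 22% and 18.3% lower. The summed signal of the 10 members was 436271, 845836, 327828 and 356770 on the same arrays, and HAK-1B TEC was the highest with and without Ctss, the brightest member. Within the macrophage list Lyz2 differed from LSECs by 0.83, 0.02 and 0.40 and Csf1r by 0.24, -0.90 and -1.0, whereas Cd5l, a marker of resident liver macrophages, differed by -4.60, -2.44 and -2.92.

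All 14 B cell markers on the array were well above background in the 4 endothelial preparations, with a summed signal of 37719, 58888, 23162 and 30166. Without Ly86, the brightest, it was 21589, 19038, 7940 and 15199, and HAK-1B TEC was no longer the highest. In the TECs 1, 0 and 0 of the 14 were 2-fold higher and 2, 11 and 3 were 2-fold lower, with list medians of 0.28, -1.27 and 0.11. Ly86 differed from LSECs by 1.30, -0.08 and -0.11, Cd37 by -1.20, -1.68 and -1.98 and Cd79b by 0.46, -0.87 and 0.33. Of 15 dendritic cell markers 12 to 14 were well above background, with a summed signal of 143512, 116839, 77307 and 82674. Without Siglech, the brightest, it was 24338, 44879, 26543 and 28540, which turned LSECs from the highest to the lowest. In the cultured Hepa1-6 cells, which are no endothelium, the summed signal of the whole list was 44391. There Siglech had 15.25 on the log2 scale, against 16.86 in LSECs, and Bst2 had 12.29, both well above background. In the TECs 4, 2 and 3 of the 15 were 2-fold higher and 3, 5 and 4 were 2-fold lower. Itgax, which encodes CD11c, passed the rule of size in all 3 TECs with 74.8-fold, 23.9-fold and 21.6-fold the LSEC signal, while Siglech differed by -0.73, -1.23 and -1.14, Bst2 by -0.85, -0.55 and -0.57 and Cd207 by -1.51, -2.59 and -1.18. Xcr1 was dark on every endothelial array other than Hepa1-6 TEC. Clec9a, Zbtb46, Flt3, Ccr7 and Ccl17 were chosen after their values were seen. All but Ccl17, which was dark in LSECs, were well above background on all 4 endothelial arrays. Clec9a differed by -2.87, -2.13 and -2.09 and Zbtb46 by -3.21, -4.18 and -2.57. In contrast, Flt3 differed by 3.03, 0.64 and 0.96 and Ccr7 by 1.31, -0.08 and 1.55. Ccl17 was at least 4.03-fold, 38.6-fold and 4.78-fold above LSECs and passed the rule of size in Hepa1-6 TEC. The part of these cell types in the class II signal was not tested.

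Of 9 T cell markers 6 to 9 were well above background, with medians of -0.15, -0.79 and -0.01, Icos differing by -1.87, -2.35 and -2.29, Lck by -0.72, -0.88 and -0.72 and Cd4 by 0.26, -0.01 and 0.32. Cd8a was dark on every endothelial array other than Hepa1-6 TEC. Of 8 hepatocyte markers 6 were 2-fold lower in each TEC from a human line and 2 in Hepa1-6 TEC, and 0, 3 and 1 were 2-fold higher. The list medians were -4.21, 0.75 and -2.98. In Hepa1-6 TEC Alb was higher by 2.57 and Serpina1a lower by 2.19, and Trf differed by 0.47, 1.00 and 0.03 in the 3 TECs.

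The genes whose pattern over the 4 endothelial arrays was nearest to the mean of H2-Aa, H2-Ab1, H2-Eb1 and Cd74 were not class II genes. By the root mean square difference of array-centred log2 values, over 16998 gene names measured on all 4 arrays, the nearest were Cyfip1 (0.036), Pcgf3 (0.050), Hat1 (0.073), Fbrsl1 (0.074) and Ptprd (0.074), followed by Armc7, an unnamed probe, Gm8884, a transcript listed only by an array name and C920008N22Rik, up to 0.10. Cyfip1 differed from LSECs by 1.31, -0.25 and -0.38. With 4 arrays many genes can come close to any pattern, and the list is a description only.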

How the data were processed

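The authors hybridized Cy3-labelled RNA from 5 conditions to 60-mer Agilent mouse arrays and extracted the scans with Feature Extraction (9.5.1.1 per the labels, 10.7.1.1 per the file headers). They deposited background-subtracted spot intensity values on a linear scale with flags, and a table of normalized intensity values whose columns share 1 distribution. Here control spots were left out, spots of a probe were averaged, and the log2 values of all 5 arrays were brought to 1 distribution by quantiles, which the methods do for the arrays compared. Each gene is represented by its brightest probe on average. Kept were probes present on at least 1 of the 2 arrays, without 4460 lincRNA probes. The Z-score was the log2 difference minus its mean over kept probes, divided by its SD.

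A probe not well above background on 1 array gave a bound, the bright signal over the higher of the dim probe's own signal and the lowest signal of a probe well above background on the dim array. limma 3.58.1 in R 4.3.3 had 2 residual degrees of freedom, with p-values adjusted by Benjamini-Hochberg. Other steps used Python 3.11.15, pandas 2.3.3 and numpy 2.4.6, and the rule of size and limma were tested on simulated data. Promoters came from RefSeq (GRCm38.p6), and probe positions are mm9 per the file headers.

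The members and the 14 gene lists were chosen with earlier results of these data known. Named were all members, the 10 nearest patterns and, of each pathway list, the genes called in at least 1 TEC. Where none was called, the 2 with the largest mean difference were named. Of each cell type list the 3 brightest in LSECs and those called in all 3 TECs were named. Outside this rule, with values known, H2-Eb2, Ifngr2, Jak2, Xcr1, Cd8a and some cell type markers called in fewer than 3 TECs were named. The same holds for genes marked above as chosen after their values were seen. The methods' paragraph on these arrays names Huh-7 where the labels name HAK-1B. MicroRNA arrays and arrays of treated tumors were not analysed here.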

Additional observations from a re-analysis of the deposited data

Results flagged for a closer look

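For 4 members a pair of TEC arrays lay on opposite sides of the LSEC array, each by more than the ratio of 1.5 that the methods use, by the brightest probe. H2-Ab1 and H2-Eb1 were higher in HAK-1B TEC and lower in KYN-2 TEC, the TEC arrays being 1.68 and 1.59 apart on the log2 scale. Cd80 did the same with a gap of 1.32, although its other 3 probes were higher in both. Ctss was higher in HAK-1B TEC and lower in Hepa1-6 TEC with a gap of 1.39. After 75th percentile scaling KYN-2 TEC differed from LSECs by only -0.09 for H2-Ab1, -0.24 for H2-Eb1 and -0.58 for Cd80. Ctss in Hepa1-6 TEC then differed by -0.43, so none of the 4 was past 1.5-fold on the lower side. The gaps between TEC arrays were not tested, since each condition had 1 array and all comparisons share the LSEC array.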

How the results depend on the processing

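The members' median kept its direction in HAK-1B TEC (1.17 to 1.67), Hepa1-6 TEC (-0.41 to -0.22) and the cultured cells under the alternatives run, but in KYN-2 TEC it turned to 0.053 after 75th percentile scaling and to 0.0055 with the mean of all probes. In the cultured cells it was -5.58 after normexp and -6.72 with the mean of all probes. The median over the mean of the 3 TECs ran from -0.25 to 0.55 with 1 TEC left out.
By the rule of size, normexp called 2 members in HAK-1B TEC, both higher against 3.31% of all genes. The ratio alone called 9 in HAK-1B TEC, all higher against 26.6% of all genes. It called 3 in Hepa1-6 TEC, 2 higher (35.2%) and 1 lower (30.9%), and 5 in KYN-2 TEC, 1 higher (26%) and 4 lower (28.5%). Presence on both arrays left 4 in the cultured cells, all lower against 3.66%. Counts at 2-fold, whose alternatives were chosen after seeing the data, moved to 1 lower in Hepa1-6 TEC with the mean of all probes. With both arrays above background the cultured cells had 4 lower, which were all the members that could be measured there. Under the main setting 22% of all genes were 2-fold lower in Hepa1-6 TEC and 30.9% in the cultured cells.
Single genes whose mean over the TECs changed sign were H2-Ab1 (0.42 at the 75th percentile, 0.13 with all probes), H2-Eb1 (0.21 at the 75th percentile) and Cd80 (1.30 with all probes). With 1 TEC left out, H2-Aa ran from -0.24 to 0.96, H2-Ab1 from -0.65 to 0.19, H2-Eb1 from -0.66 to 0.13, Ciita from -0.75 to 0.10, Cd80 from -0.45 to 0.22 and Ctss from -0.27 to 0.43. limma called 0 members under each alternative. Scaling to the 75th percentile moved the median of all genes in Hepa1-6 TEC from 0.09 to 0.43 and in the cultured cells from -0.02 to 0.11, so differences there are relative to that shift.
Without its brightest marker, an alternative chosen after seeing the data, a list's summed signal against LSECs turned in HAK-1B TEC from 0.043 to -0.21 for macrophages, from 0.64 to -0.18 for B cells and from -0.30 to 0.88 for dendritic cells. The dendritic cell sum also turned to 0.13 in Hepa1-6 TEC and to 0.23 in KYN-2 TEC.
No paired analysis was possible because the conditions had a single array each. A slide term could not be fitted, since each slide held 1 group. Dark probes give bounds only. The cause of these changes was not tested.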
